A study of Drosophila melanogaster with 34 samples.

Results

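Paraquat feeding was examined in heads of female Drosophila melanogaster by RiboMeth-seq, an assay that reads 2′-O-methylation of ribosomal RNA (rRNA) from the protection it gives against alkaline cleavage. The comparison took the 6 libraries of this experiment, chosen by their labels, of 34 libraries in the series. The control group (3 libraries) came from flies on 5% sucrose for 8 days, and the paraquat group (3 libraries) from flies on 5% sucrose with 2.5 nM paraquat for 8 days. The dose is as labelled; paraquat is usually fed to flies in the millimolar range, so the labelled unit may be a typing error. Both groups share sex, tissue, sucrose and duration. The labels name no genotype or strain, no fly age apart from the unexplained prefix d17 in the titles, and no number of heads per library. The other libraries are heads from temperature and food experiments (20 libraries) and S2R+ cells (8 libraries). All 72 listed rRNA sites were compared, of which 18S rRNA carries 24, 28S rRNA 47 and 5.8S rRNA 1. Because only rRNA was read, the labelled tissue could not be checked against marker genes. A whole head mixes many cell types, so a shift in every cell and a shift in the mix of cells cannot be told apart.

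2′-O-methylation adds a methyl group to the ribose of a nucleotide. At most rRNA sites it is placed by Fibrillarin within box C/D small nucleolar ribonucleoproteins, whose guide RNA pairs with the target. A few sites of the large subunit are handled by stand-alone enzymes, of which yeast Spb1 is the known case in the A-loop, the part of the peptidyl transferase centre that holds the incoming aminoacyl-tRNA. Paraquat is a herbicide that cycles between redox states and produces superoxide, and it is widely fed to flies to impose oxidative stress. Site names give the rRNA, the methylated nucleotide and its position in the authors' numbering, and [Psi] marks a uridine whose name also carries pseudouridine.

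The measured quantity was the authors' level score, which ends at 1 and is high where a site is protected. It lay at or above 0.9 for 62 of the 72 sites on average over the 6 libraries, between 0.5 and 0.9 for 9, and below 0.5 for 1, 18S Gm1952. Median coverage of a site was 34022 to 55204 reads per library, lowest in paraquat replicate 3. The pair 18S Am[m62A]1976 and 18S Am[m62A]1977 near the end of 18S rRNA was read least, at 130 to 316 reads.

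The site that stood apart was 28S Um[Psi]3454, which the site table marks as dependent on CG8939, a protein-coding gene of the X chromosome with the synonym dSpb1 in the reference gene table. Its score was 0.961, 0.970 and 0.962 in the 3 control libraries and 0.906, 0.911 and 0.932 in the 3 paraquat libraries. Every paraquat library lay below every control library, and paraquat replicate 3 was the nearest to the controls. The means were 0.964 ± 0.00499 and 0.916 ± 0.0141 (SD, n = 3 each), a difference of -0.0480 with a 95% interval from -0.0668 to -0.0293. In the test of the score across the 72 sites (limma, two-sided, Benjamini-Hochberg adjustment) this did not pass, with an adjusted p of 0.0683. It passed in 4 of 14 alternatives. With single libraries left out it passed only without paraquat replicate 3, at an adjusted p of 0.00429 (limma). Over the 14 alternatives the adjusted p ran from 2.90e-06 to 0.496 and the direction was the same.

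The read ends behind the score were then compared directly. Alkaline cleavage at an unprotected bond leaves ends of fragments at the site, so read ends per 1000 covering reads rise where protection is lost. At 28S Um[Psi]3454 the 3 control libraries held 52, 30 and 61 read ends over 52415, 38348 and 61806 covering reads. The 3 paraquat libraries held 116, 103 and 62 over 48852, 43131 and 34217. Per 1000 covering reads this was 0.992, 0.782 and 0.987 in controls and 2.37, 2.39 and 1.81 with paraquat. The groups did not overlap, and neither did the exact 95% Poisson intervals of single libraries, which cover counting error only: the highest control bound was 1.30 and the lowest paraquat bound 1.39.

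With coverage at the site as offset, read ends at 28S Um[Psi]3454 rose 2.37-fold with paraquat (log2 change 1.24, SE 0.258; adjusted p = 0.000172, edgeR quasi-likelihood test with Benjamini-Hochberg adjustment over the 72 sites, n = 3 each). It was the single site called in this test, 1 of 72 or 1.39%. The test pooled the spread between libraries over the 72 sites, so the spread at 28S Um[Psi]3454 itself had little weight in the p-value. At an unadjusted p under 0.05 there were 5 sites (6.94%), all with more read ends with paraquat: besides this site, 28S Am3478 and 18S Am469 these were 28S Gm1692 and 28S Um1859, at log2 changes of 0.58 and 0.17 that did not pass. Read ends did not overlap between the groups at 11 sites (15.3%), 8 with paraquat above (11.1%) and 3 below (4.17%). The call was kept without any 1 of the 6 libraries, with adjusted p-values from 0.000207 to 0.00376 (edgeR). With limma on log2 read ends per covering read the call was kept more weakly, at an adjusted p of 0.0346. It was lost with 5′ ends alone (adjusted p = 0.763), of which the site held 0 in controls and 2 with paraquat, so the change lay in the 3′ ends, 143 in controls and 279 with paraquat. The score and the read ends come from the same reads and are not independent measurements. Coverage was close between the groups: the site's share of the coverage over the 72 sites was 1.26% ± 0.0584 under sucrose and 1.26% ± 0.0710 under paraquat (SD, n = 3 each).

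**Figure D1:**
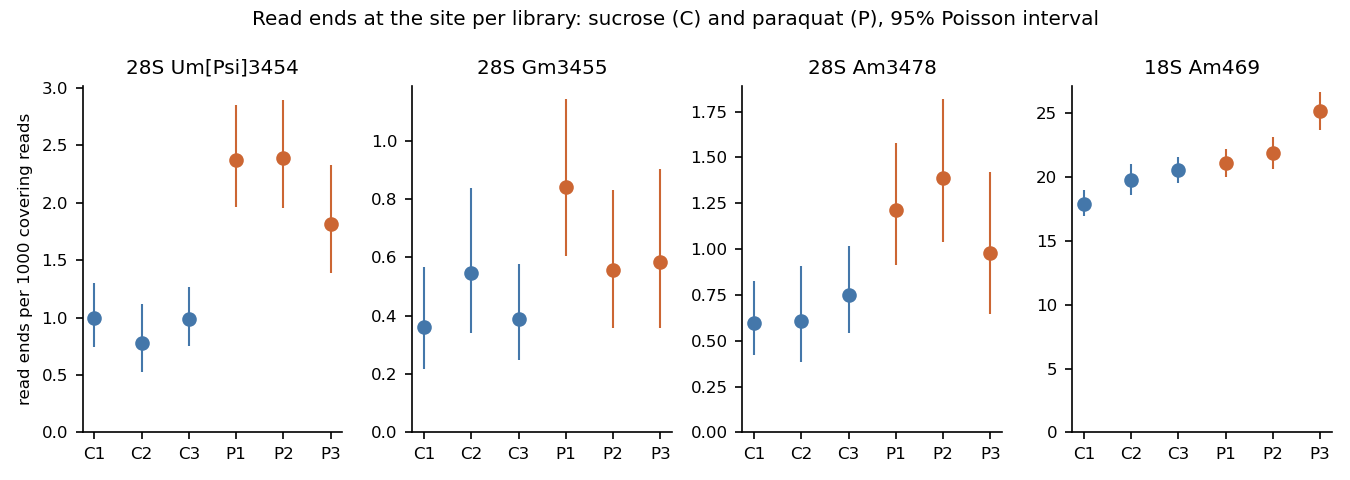
Read ends per 1000 covering reads (vertical axis, starting at 0) in each control library (C1 to C3, blue) and paraquat library (P1 to P3, orange) at 4 sites, with exact 95% Poisson intervals. At 28S Um[Psi]3454 the controls sit at 0.782 to 0.992 and the paraquat libraries at 1.81 to 2.39.

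The adjacent nucleotide, 28S Gm3455, is annotated with the yeast enzyme SPB1, and its score can share neighbouring positions with that of 28S Um[Psi]3454. Its scores were 0.990, 0.985 and 0.989 in controls and 0.976, 0.985 and 0.984 with paraquat. The groups overlapped, and the difference of -0.00622 did not pass (95% interval -0.0140 to 0.00153, adjusted p = 0.575, limma). Read ends per 1000 covering reads were 0.363, 0.548 and 0.389 in controls and 0.841, 0.558 and 0.585 with paraquat. All 3 paraquat libraries were above all controls, by a small margin for 2 of them, and this did not pass either (log2 change 0.65, adjusted p = 0.489, edgeR). Both sites with a named methyltransferase were thus lower in score and higher in read ends by value, beside 46 and 43 of all 72 sites, and 1 of the 2 passed the read-end test, the single call among the 72.

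To place these levels, 28S Um[Psi]3454 was read in the other 20 head libraries, which belong to other experiments and were not tested against these 6 for level. Their scores ran from 0.938 to 0.962 with a median of 0.950, and their read ends from 1.26 to 1.95 per 1000 covering reads. The 3 control libraries had fewer read ends per covering read than any of those 20. Paraquat replicates 1 and 2 had more per covering read than any of them, and paraquat replicate 3 lay within their range. Over all listed sites, read ends per 1000 covering reads were 2.67 to 3.31 in the libraries of the paraquat experiment. Those 20 were all higher, at 3.34 to 4.97. In score, all 3 paraquat libraries lay below the lowest of those 20, while the controls reached from the top of their range to above it. At 28S Gm3455 the order was another: the 5 other head groups had mean scores of 0.975 to 0.979, below both groups of the paraquat experiment. Experiment and group cannot be told apart in such levels. In S2R+ cells the score at the site was 0.908 ± 0.00469 under the LacZ control knockdown and 0.857 ± 0.0189 under Fibrillarin knockdown (SD, n = 4 each).

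**Figure D2:**
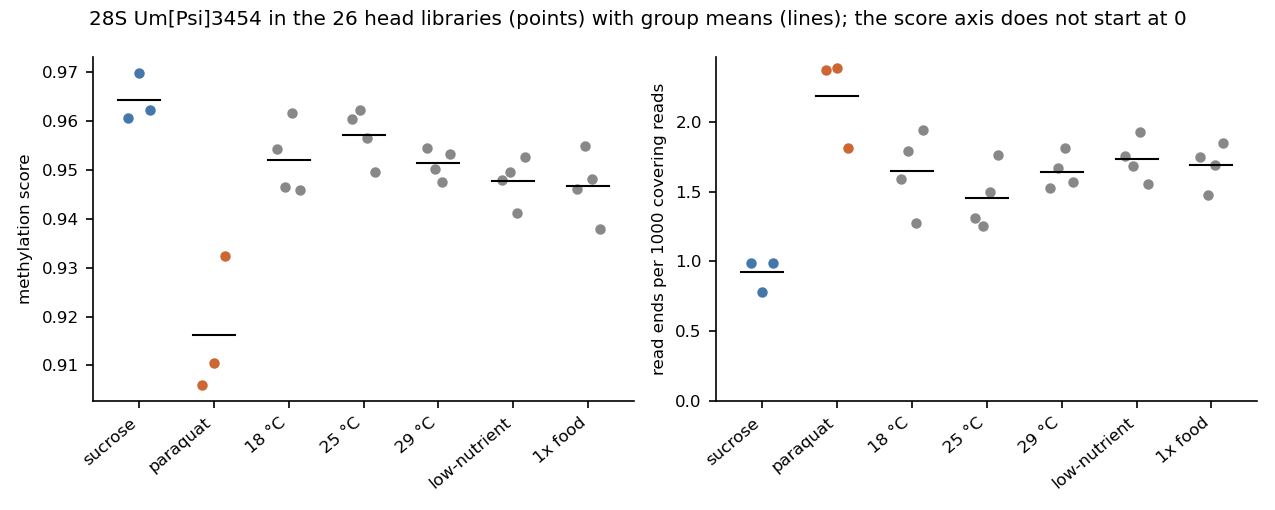
Methylation score (left, axis not starting at 0) and read ends per 1000 covering reads (right) at 28S Um[Psi]3454 in the 26 head libraries, as points, with group means as lines. Sucrose controls are blue, paraquat libraries orange and all others grey; the other 5 groups lie between 0.938 and 0.962 in score.

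Across all 72 sites no score passed the adjusted threshold of 0.05 (0 of 72, 0.0%; limma), and 8 sites (11.1%) had an unadjusted p under 0.05, 5 lower (6.94%) and 3 higher (4.17%) with paraquat. That count was 3 without paraquat replicate 1, 4 without control replicate 1 or 3, and 5 without paraquat replicate 3. The groups did not overlap at 11 sites (15.3%), 8 with paraquat below (11.1%) and 3 with paraquat above (4.17%). By value 46 sites were lower and 26 higher with paraquat, with a median difference of -0.00135. At 59 sites the difference was under 0.01 in size. At 55 sites the whole 95% interval stayed inside ±0.02, and at 32 of them inside ±0.01. The least constrained site was 18S Gm1952, at a half-width of 0.0814. The mean score over the 72 sites was 0.954 ± 0.00191 and 0.952 ± 0.00118 (SD, n = 3 each; exact two-sided permutation test, p = 0.20, where 3 against 3 cannot go below 0.10). The difference of -0.00215 was -0.00131 without control replicate 1 and -0.000497 with the median over sites in place of the mean.

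**Figure D3:**
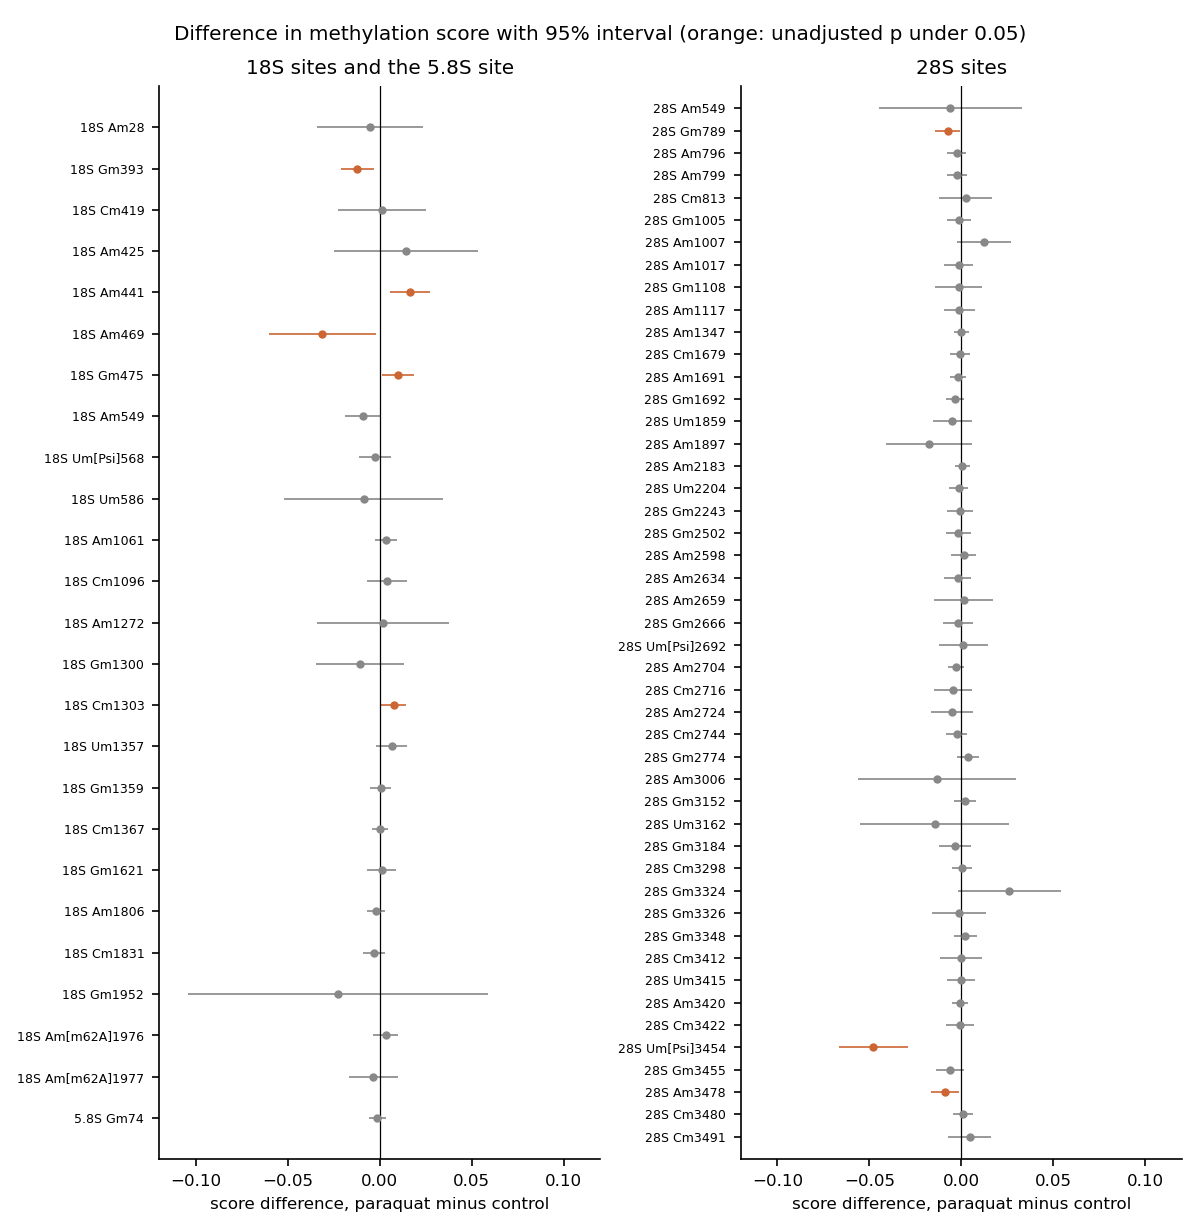
Difference in methylation score, paraquat minus control (horizontal axis), for each listed site in order along 18S and 5.8S rRNA (left) and 28S rRNA (right), with 95% intervals. Sites with an unadjusted p under 0.05 are orange; 28S Um[Psi]3454 lies at -0.0480 and most others within 0.01 of 0.

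Apart from 28S Um[Psi]3454, 7 guided sites had an unadjusted p under 0.05, each with an adjusted p of 0.352 (limma), so none of them passed. Of these, 3 were higher with paraquat, and all 3 are in 18S rRNA. 18S Am441 scored 0.946, 0.962 and 0.954 in controls and 0.968, 0.970 and 0.973 with paraquat, a difference of 0.0166. Its read ends ran from 2.85 to 4.29 per 1000 covering reads in controls and from 1.90 to 2.27 with paraquat, which did not pass (log2 change -0.74, adjusted p = 0.482, edgeR). 18S Gm475 scored 0.939, 0.945 and 0.949 in controls and 0.955, 0.951 and 0.958 with paraquat. 18S Cm1303 scored 0.975, 0.967 and 0.968 in controls and 0.979, 0.976 and 0.979 with paraquat. At each of these 3 sites all paraquat libraries were above all controls, and read ends per covering read were below, without passing. At 18S Cm1303 control replicate 1 came closest to the paraquat libraries.

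The other 4 were lower with paraquat. 18S Gm393 scored 0.975, 0.968 and 0.980 in controls and 0.961, 0.960 and 0.966 with paraquat, a difference of -0.0122. 28S Am3478, downstream of the methyltransferase pair, scored 0.985, 0.986 and 0.984 in controls and 0.975, 0.972 and 0.982 with paraquat. At both sites the groups were apart by a narrow gap. Read ends at 28S Am3478 had the second smallest p of the read-end test, at 0.597, 0.607 and 0.751 per 1000 covering reads in controls and 1.21, 1.39 and 0.978 with paraquat (log2 change 0.88, SE 0.309, adjusted p = 0.173, edgeR). As at 28S Um[Psi]3454, paraquat replicate 3 lay nearest the controls.

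28S Gm789 scored 0.966, 0.967 and 0.966 in controls, the tightest of these groups, and 0.961, 0.954 and 0.963 with paraquat. 18S Am469 began lower than the rest, at 0.816, 0.789 and 0.793 in controls against 0.782, 0.776 and 0.747 with paraquat. Its difference of -0.0312 was the second largest of all sites. 18S Am469 is cleaved often enough to be counted well, with 1026 to 1586 read ends per library. They came to 17.9, 19.8 and 20.6 per 1000 covering reads in controls and 21.1, 21.8 and 25.1 with paraquat. The groups were apart, and the 1.17-fold difference did not pass (adjusted p = 0.198, edgeR).

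**Figure D4:**
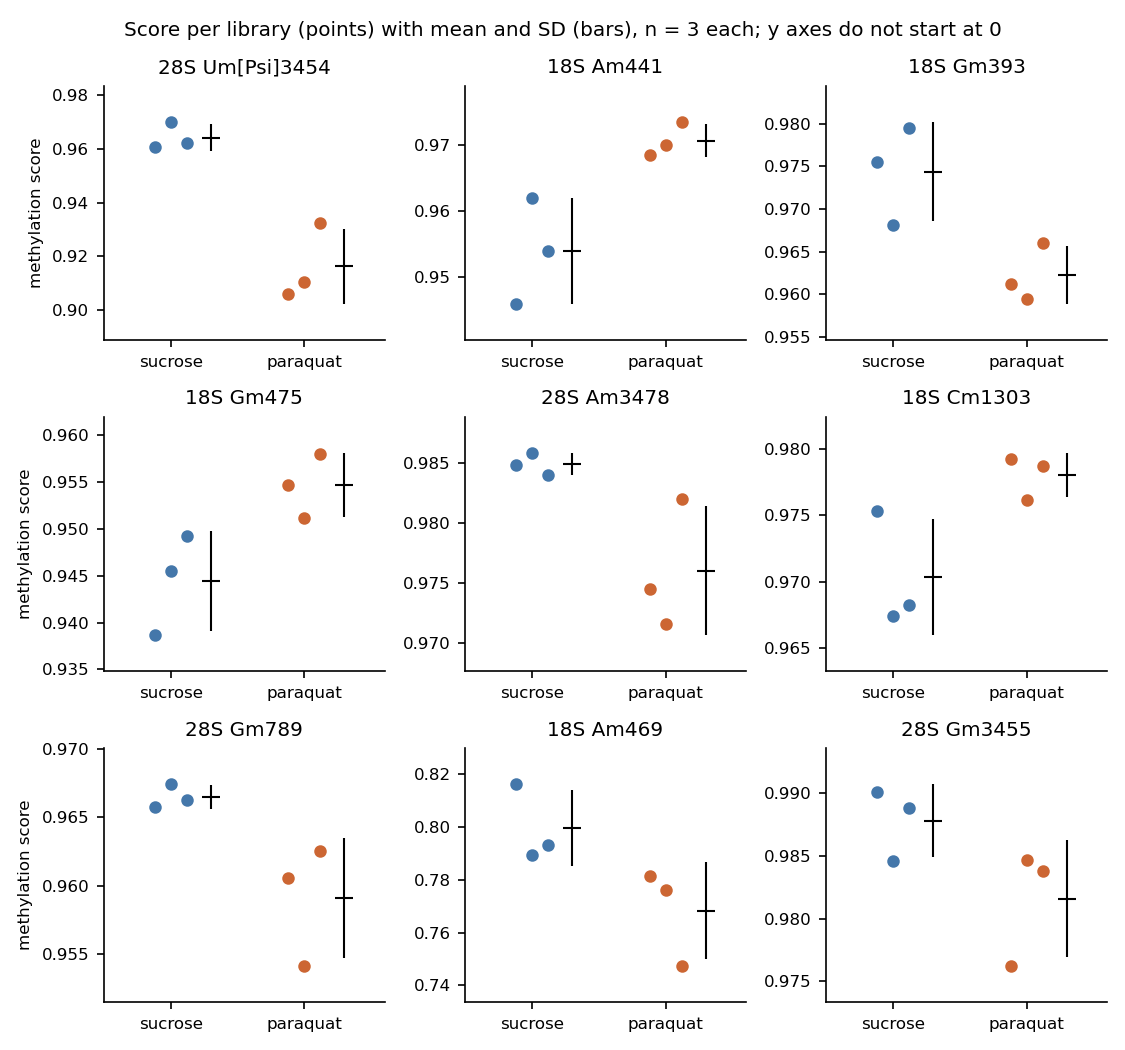
Methylation score per library (points) at the 8 sites with an unadjusted p under 0.05 and at 28S Gm3455, with mean and SD (bars, n = 3 each); vertical axes differ and do not start at 0. Only at 28S Gm3455 do the 2 groups overlap.

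The largest differences outside these sites came with wider spread. 28S Gm3324 had the largest positive difference, 0.0262, from 0.854, 0.842 and 0.862 in controls to 0.883, 0.857 and 0.897 with paraquat, where paraquat replicate 2 lay within the control range (adjusted p = 0.451, limma). 28S Am1007, 18S Am425 and 18S Um1357 followed among higher sites, with differences of 0.0125, 0.0142 and 0.00647, and 28S Cm3491, 18S Cm1096 and 28S Gm2774 were at 0.00445, 0.00399 and 0.00365. Among lower sites, 28S Am1897, 28S Um3162, 28S Am3006 and 18S Gm1300, all of unknown guide, were at -0.0175, -0.0144, -0.0133 and -0.0108. 18S Am549, a guided site, was at -0.00915. In none of these did the test pass, and in all of them the groups overlapped. The remaining sites whose groups did not overlap, 28S Gm1692, 28S Am2704 and 28S Am1691, were lower by small amounts, at -0.00331, -0.00276 and -0.00168.

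Replicate spread set which sites could be read. The widest SD within a group belonged to 18S Gm1952, the single site of low score, which scored 0.164, 0.273 and 0.201 in controls and 0.203, 0.149 and 0.218 with paraquat, with groups that overlap. 18S Am425, 28S Am549, 28S Am3006 and 18S Um586 were next. The median SD over sites was 0.00391 in controls and 0.00399 with paraquat.

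By rRNA, 34 of the 47 sites of 28S were lower with paraquat in value (median -0.00144), against 11 of the 24 sites of 18S (median 0.000428), beside 46 of 72 over all sites; the 5.8S site, Gm74, was at -0.00120. By annotation, 35 of 59 sites with a listed guide and 9 of 11 of unknown guide were lower, with medians of -0.000750 and -0.00502. By base, the median was -0.00180 at A, -0.00144 at G, -0.00266 at U and 0.000305 at C sites. No site of any of these classes passed in the score test.

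Guide RNAs listed in common joined 15 pairs of sites, and in 9 both sites differed in the same direction by value. 28S Am3478 and 28S Cm3480, 2 bases apart, list the same 4 guides, while their differences were -0.00888 and 0.000888. 18S Am469 and 18S Gm475, 6 bases apart with 1 guide in common, differed by -0.0312 and 0.0102. None of these differences passed the test.

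Coverage along the rRNAs was compared in the same way, and no site passed (0 of 72, 0.0%; 8 sites or 11.1% at an unadjusted p under 0.05, 5 higher or 6.94% and 3 lower or 4.17%; limma on the log2 share of coverage). The groups did not overlap at 9 sites (12.5%), 5 with paraquat above (6.94%) and 4 below (5.56%). With replicate number as a block in the fit, 22 of the 72 sites passed, 7 lower and 15 higher. No label states that replicates were paired. The count of 8 rested on single libraries: it was 28 without control replicate 3, 4 without control replicate 1, 3 without paraquat replicate 1 and 1 without paraquat replicate 3. Sites of 18S held 18.6, 20.1 and 20.5% of the coverage of the listed sites in controls and 21.2, 20.7 and 22.0% with paraquat. All 3 paraquat libraries were thus above the controls, and 22 of 24 sites of 18S had a higher share in value, beside 47 of all 72 sites. The 9 sites of 28S beyond position 3400, a boundary chosen after the values were seen, all had a lower share in value, beside 25 of all 72 sites, by log2 differences of -0.00541 to -0.346. The 5 smallest p-values belonged to 28S Cm3491, 28S Cm3480 and 28S Am3478, with log2 differences of -0.35, -0.24 and -0.23, and to 18S Um586 and 18S Am1061, at 0.29 each, all with an adjusted p of 0.314. Of the score sites above, 28S Am3478 lies among those with a lower share; the part of coverage in its score difference was not tested. Read ends over all listed sites were 2.67, 2.93 and 3.07 per 1000 covering reads in controls and 3.04, 3.21 and 3.31 with paraquat, which overlap.

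**Figure D5:**
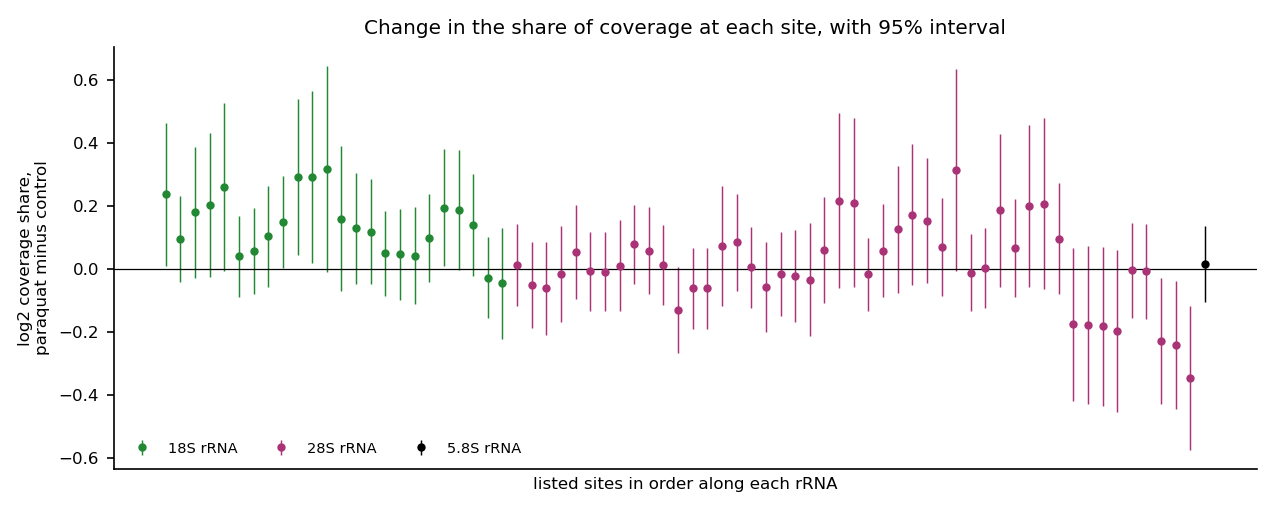
Log2 difference in the share of coverage, paraquat minus control, at each listed site in order along each rRNA, with 95% intervals; green points are 18S, purple 28S and black 5.8S rRNA. Most 18S sites lie above 0 and the last 28S sites below it, down to -0.35 at 28S Cm3491.

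The paraquat effect was also set against other treatments of heads by testing the difference between effects in 1 fit, each treatment against its own controls. Low-nutrient food, labelled 0.25x sugar without a.a., was set against 1x food for 10 days with 4 libraries each. Low-nutrient replicate 4 stood apart, with a mean score over the sites of 0.935 against 0.948 to 0.953 in the others of its group. Its read ends were 4.77 per 1000 covering reads against 3.34 to 3.91. This library was kept in every fit, and its part in the results was not tested. The paraquat effect differed from that food effect at 2 of 72 sites (2.78%; limma), with 6 (8.33%) at an unadjusted p under 0.05; food alone was called at 3 sites (4.17%). 28S Um[Psi]3454 differed by -0.0491 (adjusted p = 0.00624), the effect of food being 0.00108 and that of paraquat -0.0480. Alone, that paraquat effect had not passed in the score test (adjusted p = 0.0683, limma). The fit here pooled the spread over the paraquat, control and food libraries. The SD at the site was 0.0141 with paraquat and 0.00499 in its controls, and 0.00487 on low-nutrient and 0.00700 on 1x food. 28S Gm3324 differed by 0.0724 (adjusted p = 0.0113): it was 0.794 ± 0.0163 on 1x food and 0.747 ± 0.00814 on low-nutrient food (SD, n = 4 each), whereas with paraquat it was higher in value than in its controls. The first was no longer called with another deposited score, mean2 (adjusted p = 0.0771), and the second on the log2 odds scale (adjusted p = 0.09999). 28S Am1007, 28S Gm3455 and 18S Cm1303 had the next smallest p-values and did not pass. 18S Am469 and 28S Gm789, both lower in value with paraquat, were lower on low-nutrient food too, by effects of -0.0466 (adjusted p = 0.00281) and -0.0153 (adjusted p = 0.0250), and the differences from the paraquat effect did not pass, with 95% intervals of -0.0120 to 0.0427 and -0.00111 to 0.0169.

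Against 29 less 25 °C in darkness for 8 days, with 4 libraries each, 11 of 72 sites differed (15.3%; limma), all with the paraquat effect below that of temperature, and 15 (20.8%) had an unadjusted p under 0.05. Temperature alone was called at 12 sites (16.7%). Without control replicate 2 the calls were 10 below and 1 above. The smallest adjusted p was at 28S Cm3422, 0.000290, where the effect of temperature was 0.0346 and that of paraquat -0.000730. 28S Gm2243 was alike, at 0.0222 and -0.000750 (difference of effects -0.0229, adjusted p = 0.00129). At 18S Cm1303 the effects were 0.0610 for temperature and 0.00768 for paraquat (adjusted p = 0.00436), and at 18S Gm393 they were 0.00761 and -0.0122 (adjusted p = 0.00549). At 28S Um[Psi]3454 the paraquat effect was -0.0480 and that of temperature -0.00582 (difference of effects -0.0422, 95% interval -0.0591 to -0.0253, adjusted p = 0.00400). 28S Um[Psi]3454 was the one site that differed from both treatments in the sense of a lower score with paraquat than with either. Both tests took the same paraquat and control libraries, and so the same paraquat effect, and are not independent. The temperature fit likewise pooled the spread over its libraries, with an SD at this site of 0.00318 at 29 °C and 0.00565 at 25 °C.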

How the data were processed

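Groups, replicate numbers and doses came from the labels. The authors deposited 1 table of 72 sites per library. Per the submitters' processing notes, reads were handled with Trimmomatic 0.39 and Bowtie2 with build dm6; the labels and headers state neither what reads were aligned to nor how scores were computed. The protocol in the labels describes RNA from S2R+ cells only. The deposited score (scoreC2) was used as given. Coverage was deposited as a count of reads over the site. Read ends were deposited as whole numbers with 0.1 for none (72 of the 432 values at 5′ and 10 at 3′ ends), and were treated like estimated or expected counts, rounded to whole numbers.

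Tools were limma 3.58.1, edgeR 4.0.16 and DESeq2 1.42.0 in R 4.3.3, with Python 3.11.15 and scipy 1.17.1. The fits were tested on simulated data with large planted effects, which does not show how well smaller differences would be found. Alternatives were the log2 odds (0.01 added), library centring, the other deposited scores, minima of 1000 reads or 10 read ends, and a pseudocount of 1. Each of the 6 libraries of the paraquat experiment was also left out in turn, and no other library was. Within groups, read ends of any 2 libraries differed beyond sampling noise (chi-square over its degrees of freedom at least 2.66). No source states whether replicates came from different flies. The p-values therefore reflect only how these libraries spread, which may be technical, and for read ends that spread was pooled over the sites. Sites were named where the unadjusted p was under 0.05, among the 10 largest differences per direction, the 5 widest SD, the 5 smallest p of each other test, and where a methyltransferase was named or the mean score was under 0.5; this gave 30 sites. Sites, classes and tests were chosen with earlier results of these data known. Of 109 listed guide identifiers 1 had a name in the reference table, so guides are not named.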

Additional observations from a re-analysis of the deposited data

Results flagged for a closer look

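The tests of differences between treatments brought out the following sites, each as the paraquat effect on the score less the effect of the other treatment (limma, adjusted p under 0.05). Against low-nutrient food these were 28S Gm3324 at 0.0724 and 28S Um[Psi]3454 at -0.0491. Against 29 less 25 °C they were 18S Cm1303 at -0.0533, 28S Um[Psi]3454 at -0.0422, 28S Cm3422 at -0.0353, 28S Gm789 at -0.0250, 28S Gm2243 at -0.0229, 18S Am549 at -0.0224, 18S Gm393 at -0.0198, 28S Gm2502 at -0.0114, 28S Am1691 at -0.0112, 28S Gm1692 at -0.00923 and 28S Cm2744 at -0.00911. Over 12 alternatives 28S Gm1692 passed in 4 (adjusted p up to 0.0906) and 28S Cm2744 in 6 (up to 0.244), 28S Gm789 in 9, and 18S Am549, 28S Gm2502 and 28S Am1691 in 10 each; the other 5 sites passed in all 12. The 2 experiments set against each other are separate, so treatment and experiment differ together, and their part was not tested.

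In 15 groups of 4 libraries behind those values, 2 held a library far from the other 3, both at 28S Gm2243: the highest of the 25 °C group at 0.970 and the lowest of the 29 °C group at 0.983. Chance flags about 1 in 20 groups.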

How the results depend on the processing

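For the score, 0 sites passed with scores centred on library medians, the other deposited scores, the coverage minimum and the replicate block; 1 passed on the log2 odds scale, with all 7 head groups in 1 fit and with trended and robust moderation, and 0 to 1 when any 1 library was left out. The 1 was 28S Um[Psi]3454 each time, called without paraquat replicate 3 (adjusted p = 0.00429, limma), and over 14 alternatives its adjusted p ran from 2.90e-06 to 0.496. An exact permutation test per site cannot pass with 3 against 3. For read ends, 1 site passed in 12 of 13 alternatives and 0 with 5′ ends alone, under which the log2 change at 28S Am3478 turned to -1.55 on 0 to 4 such ends per library. The mean score differed by -0.00215, by -0.00318 to -0.00131 with 1 library left out, and by -0.000497 with the median over sites. For coverage 0 sites passed without any 1 library. Against low-nutrient food 2 sites passed without any 1 of the 6 libraries of the paraquat experiment. There, 1 site passed on the log2 odds scale and 1 with the deposited mean2. Against 29 less 25 °C 9 to 11 passed without 1 of those 6 libraries, 6 with centred scores and 7 with the deposited scoreA2. The cause was not tested. No library of the food or temperature experiments was left out in either comparison. No label states whether replicate numbers pair the libraries, and 3 libraries per group are too few for correlations to settle it. Deviations at equal numbers correlated at 0.144, -0.377 and 0.275 for the score. They correlated at 0.438, -0.797 and 0.778 for coverage and at 0.0817, 0.0998 and 0.188 for read ends. In none of these did every library correlate best with its own number. The replicate block gave 22 sites for coverage, 7 lower and 15 higher, among them the 5 named for coverage, and took the sites at an unadjusted p under 0.05 from 8 to 26 for coverage and from 5 to 10 for read ends. Against 29 less 25 °C it gave 10 sites, without 28S Gm789 and 28S Cm2744. The adjusted counts for the score, for read ends and against low-nutrient food stayed at 0, 1 and 2. Depth leaves as few as 30 read ends in a library at 28S Um[Psi]3454.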
